A study of Mus musculus with 8 samples.

Results

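Entry into mitosis, assembly of the spindle and division of the cell are carried out by a set of proteins, many of which mammalian cells make late in each cell cycle. The 52 genes described here encode 52 such proteins, chosen by gene symbol, and each was followed through the brightest probe set annotated to that symbol alone. All 52 symbols were found among the 19938 genes with such a probe set, Sgol1 through its present symbol Sgo1. Gene expression had been measured with single-colour oligonucleotide arrays in bone marrow stromal cells (BMSC), adherent cells of the marrow from which bone, cartilage and fat cells can arise. The cells came from C57BL/6 mice aged 6 to 8 weeks, were expanded in dishes in growth medium with fetal calf serum and were then kept on Skelite, a calcium phosphate scaffold. The study asked how microgravity affects such cells in growth medium and in osteoinductive medium, which directs them towards bone formation.

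There were 8 arrays, 1 for each of 2 media in each of 4 settings. In the microgravity setting the cells flew in incubation units within automated hardware of the KUBIK incubator. In the centrifuge setting they flew in the same kind of units and incubator on a 1g centrifuge. In the ground setting they stayed at normal gravity in incubation units of manually operated hardware, and in the laboratory setting at normal gravity in multi-well culture dishes. The first 2 settings are called flight and the other 2 ground-based, with 4 arrays each, so that flight arrays differ from ground-based arrays in how the hardware was operated and in having flown, and not in gravity alone. On both centrifuge samples the label for gravity says microgravity, against their titles, and the osteoinductive centrifuge sample is once described as kept in growth medium although it is labelled osteo-induced. The titles were followed. The labels do not say whether the arrays came from separate cultures or mice, or whether mice were pooled, so p-values rest on the spread among these 8 arrays alone, and that spread may be technical.

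The deposited values are linear intensities, with array medians between 180.9 and 196.4. A gene was tested if its mean log2 intensity over the 8 arrays exceeded 7.14, an intensity of 141.3, which kept 13205 genes and 47 of the 52 mitosis genes. Cdc25c, Ttk, Kif4, Nusap1 and Kif20b lay below that level and were fitted without the filter. Of the stromal markers, 14 of 15 listed were found and all 14 passed the filter, whereas 8 of 14 macrophage, 2 of 5 erythroid and 0 of 7 granulocyte markers did. The flight arrays also carried markers of other tissues. The summed intensity of 12 neuronal markers was 10797 to 16237 on flight arrays, against 2956 to 3996 on ground-based arrays. That of 15 skeletal muscle markers was 7211 to 9077 on flight arrays, against 2876 to 3183 on ground-based arrays. The sum of 12 lung epithelium markers reached 16142 on the osteoinductive microgravity array and 2926 to 4124 on the other flight arrays, against 1790 to 1920 on ground-based arrays, and that of 12 endothelial markers was 2450 to 3997 on flight arrays, against 1802 to 1885. The part of these markers in the results below was not tested.

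Cdk1 bound to an A- or B-type cyclin starts mitosis, after activation by Cdc25 phosphatases. The chromosomes are condensed, kinetochores attach them to spindle microtubules, and the spindle assembly checkpoint holds back the anaphase-promoting complex until all are attached. Separase then releases the sister chromatids, and the central spindle directs the contractile ring that divides the cell. Many of these genes are switched on together in the G2 phase through promoters that hold a CHR element, a site of the MuvB complex with B-Myb and FoxM1, often with CCAAT boxes, the sites of NF-Y. In quiescent cells the same element is bound by the repressive DREAM complex. Stromal progenitors proliferate before they differentiate, and the RNA of these genes is commonly read as a sign of dividing cells. In RNA from whole cultures, fewer dividing cells and less RNA per dividing cell cannot be told apart.

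The mitosis genes were lower in flight. On all 52 genes, and so on each of the 47 tested, the 4 flight arrays lay below the 4 ground-based arrays, as they did on 16.2% of the 13205 genes tested. In flight minus ground-based, fitted with the medium as a covariate, 47 of the 47 tested mitosis genes were lower at an adjusted p under 0.05 (limma with Benjamini-Hochberg adjustment over all tested genes, two-sided), where 25.7% of all tested genes were lower, and 0 were higher, where 12.7% of all tested genes were. Their median log2 difference was -1.07, a median fold of 2.1 lower, beside -0.09 over all tested genes. The filter uses the mean of all arrays, so a gene could pass it through the ground-based arrays alone. Without it 51 of the 52 were lower, all but Bub3, with a median of -1.06, where 16.2% of 19938 genes were lower. Of the 10 deepest falls among all tested genes 9 were mitosis genes, and of the 20 deepest 14. The 52 genes were chosen with earlier results of these data known, so these ranks are not independent of the data. The differences lay between -1.94 for Bub1, the lowest of all 13205 genes, and -0.24 for Bub3.

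**Figure D1:**
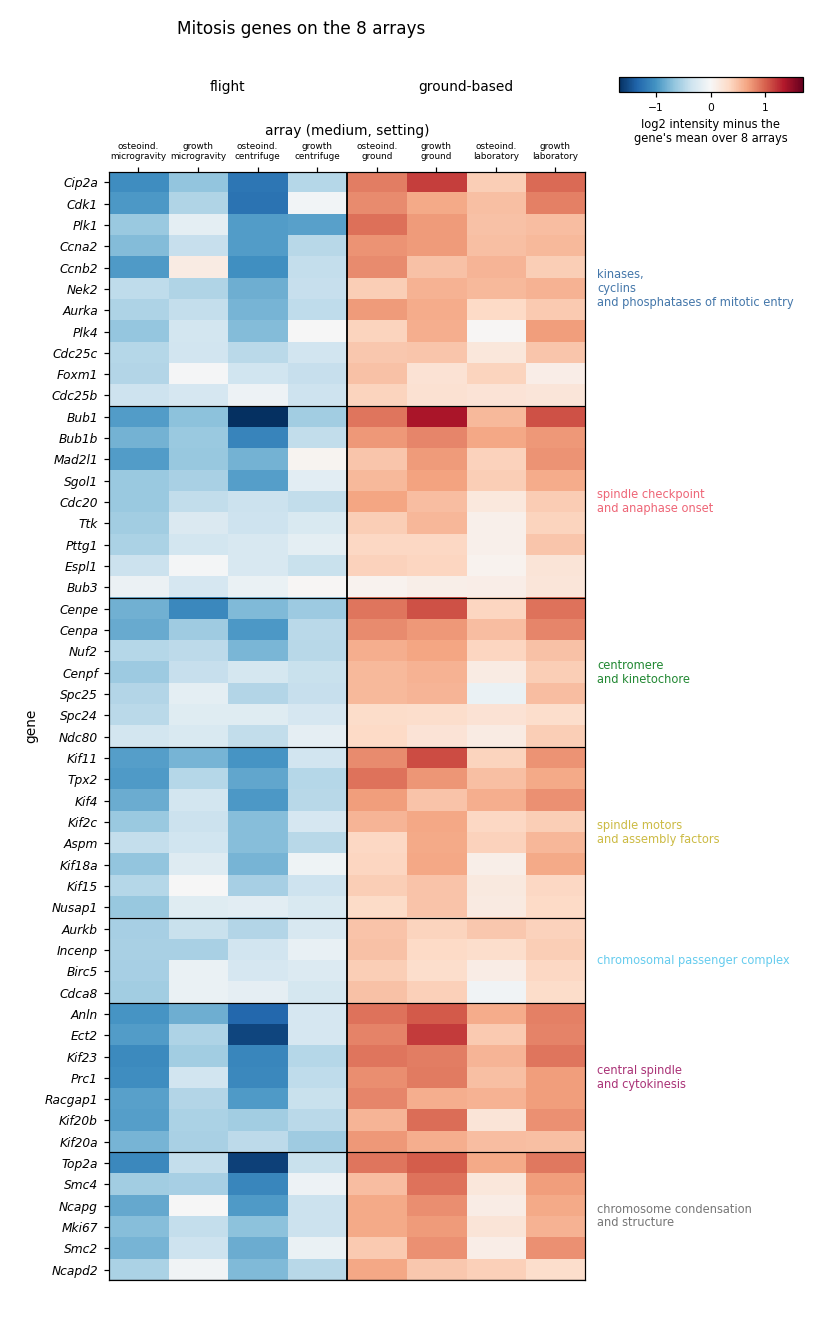
Each row is one of the 52 mitosis genes and each column one of the 8 arrays, with flight arrays left of the line and ground-based arrays right of it. The colour gives the log2 intensity minus the gene's mean over the 8 arrays. On every row all 4 flight arrays lie below all 4 ground-based arrays, and the osteoinductive centrifuge array is the lowest for 31 genes.

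The gap between the highest flight array and the lowest ground-based array was 0.02 on the log2 scale for Plk4 and 0.05 for Bub3 and Spc25, the narrowest, and 1.12 for Bub1, the widest. Measured from each gene's mean over the 8 arrays, the median mitosis gene stood at -0.63 on the osteoinductive microgravity array, -0.76 on the osteoinductive centrifuge array, -0.38 on the growth microgravity array and -0.36 on the growth centrifuge array. It stood at 0.57 on the osteoinductive ground array, 0.36 on the osteoinductive laboratory array, 0.63 on the growth ground array and 0.55 on the growth laboratory array. Over all tested genes the same medians lay between -0.07 and 0.06. The osteoinductive centrifuge array held the lowest value of 31 mitosis genes, the osteoinductive microgravity array that of 16, the growth microgravity array that of 3 and the growth centrifuge array that of 2. On single flight arrays 14 to 21 of the 52 lay below the intensity of 141.3, against 0 to 3 on ground-based arrays, so the differences of these genes approach the dim end of the scale.

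The promoters of the mitosis genes were searched for the letters TTTGAA and TTCGAA, the CHR element, and CCAAT, on both strands. The search used RefSeq windows of assembly GRCm38.p6 from 250 bases before to 50 bases after each annotated start. A window was found for 43 of the 52 genes. A CHR match lay in the window of 33 of the 43 (76.7%), beside 15.9% of the 10444 tested genes with a window and 21.7% of all 27025 genes with one. A CCAAT match lay in 31 (72.1%), beside 41.9% of the tested genes and 41.1% of all, and both lay in 28 (65.1%), beside 7.73% and 9.65%. TTTGAA was the more frequent form, in 69.8% of the mitosis genes, beside 11.6% for TTCGAA. Such a match is a run of letters and not a measured binding site. In 16 genes a CHR match lay upstream of the start. The stretches below belong to the 8 of these with the deepest falls in flight. They are shown because they hold the shared letters, which are in capitals in either orientation (TTCAAA is TTTGAA and ATTGG is CCAAT on the other strand).
Top2a (chr11:99024190-99024247, minus strand): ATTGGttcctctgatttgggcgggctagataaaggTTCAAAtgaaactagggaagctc
Ect2 (chr3:27153952-27154027, minus strand): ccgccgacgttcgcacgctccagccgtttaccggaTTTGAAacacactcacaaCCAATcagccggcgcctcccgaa
Kif11 (chr19:37376328-37376381, plus strand): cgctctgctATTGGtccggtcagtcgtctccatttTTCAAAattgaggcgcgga
Bub1b (chr2:118597988-118598063, plus strand): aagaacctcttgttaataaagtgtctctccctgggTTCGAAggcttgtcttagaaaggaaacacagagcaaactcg
Prc1 (chr7:80294411-80294475, plus strand): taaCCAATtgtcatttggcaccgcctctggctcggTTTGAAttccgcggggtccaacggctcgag
Cdk1 (chr10:69352913-69352962, minus strand): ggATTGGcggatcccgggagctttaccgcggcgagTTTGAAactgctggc
Ccnb2 (chr9:70421681-70421756, minus strand): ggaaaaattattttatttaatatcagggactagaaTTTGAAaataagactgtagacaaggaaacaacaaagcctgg
Ncapg (chr5:45669860-45669924, plus strand): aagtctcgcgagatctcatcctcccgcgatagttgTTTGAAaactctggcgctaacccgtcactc
Kif11, Top2a, Prc1 and Cdk1 hold a CCAAT match upstream of the CHR match within the stretch, Ect2 holds one downstream of it, and Bub1b, Ccnb2 and Ncapg hold none within it. Outside the stretches shown, the windows of Bub1b, Ccnb2 and Ncapg do hold CCAAT upstream of the start. Those of Bub1b and Ccnb2 also hold TTTGAA after the start. Bub1, with the deepest fall, has TTCGAA just after its start, between positions 15 and 20, and Cenpa has TTTGAA between positions 17 and 22. Cip2a and Cenpe, with deep falls of -1.68 and -1.63, have no CHR match in their windows. Bub3, with the shallowest at -0.24, has one between positions -43 and -38, and Espl1 also has one upstream of its start. Whether such matches go with the size of the fall was not tested.

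Probe set intensities are given below in a fixed order. For flight it is osteoinductive microgravity, osteoinductive centrifuge, growth microgravity and growth centrifuge, and for ground-based arrays osteoinductive ground, osteoinductive laboratory, growth ground and growth laboratory. Intensities of different genes come from different probes and are not compared with each other. Differences are flight minus ground-based on the log2 scale with their standard error (SE) and limma's adjusted p.

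Of the kinases, cyclins and phosphatases of mitotic entry, 10 of 10 tested genes were lower in flight, with a median log2 difference of -1.09. Cdk1, the kinase that drives entry into mitosis, lay at 206, 169, 283 and 386 on the flight arrays, against 689, 564, 618 and 713 on the ground-based arrays. Its flight arrays spread more widely than its ground-based arrays, with both osteoinductive flight arrays below both growth flight arrays, and the groups did not overlap (log2 difference -1.37, SE 0.15, limma adjusted p = 3.21e-05). Cip2a, whose product inhibits the phosphatase PP2A, had the deepest fall of these genes, at 122, 108, 159 and 180.1 in flight, against 451, 332, 561 and 479.5 on the ground. That is 3.21-fold lower, and the groups were far apart (log2 difference -1.68, SE 0.11, limma adjusted p = 2.61e-07). At the other end was Cdc25b, which encodes a phosphatase that activates Cdk1. It lay at 269, 322, 280.4 and 268 in flight, against 442, 402, 408 and 394 (log2 difference -0.53, SE 0.08, limma adjusted p = 0.000445), a narrow shift without overlap. Between them lay Plk1, a kinase of mitotic entry, spindle assembly and cytokinesis (-1.32), and cyclin A2, encoded by Ccna2 (-1.25). Nek2, a kinase of centrosome separation, and Aurka, a kinase of centrosome maturation, both had -1.06. Plk4, the kinase that starts centriole duplication, had -0.84 and Foxm1, the transcription factor of late cell cycle genes, -0.61. Cdc25c, fitted without the filter, had -0.79 (adjusted p = 2.09e-05, limma).

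The spindle assembly checkpoint and anaphase onset genes were lower in 8 of 8 tested cases, with a median of -1.01, and held both the deepest and the shallowest difference. Bub1, a kinase of the checkpoint, lay at 90.5, 54.3, 108 and 116 in flight, against 322, 253, 449 and 361 in ground-based arrays. It was 3.83-fold lower, and the osteoinductive centrifuge array was the lowest (log2 difference -1.94, SE 0.15, limma adjusted p = 1e-06). All 4 flight arrays of Bub1 lay below the filter level of 141.3 and all 4 ground-based arrays above it. Bub1b encodes the checkpoint protein BubR1 and lay at 139.5, 112, 155 and 181 in flight, against 400.1, 378, 421 and 399, where the 4 ground-based values were close together (log2 difference -1.47, SE 0.10, limma adjusted p = 5.78e-07). Bub3 encodes the adaptor that brings Bub1 and BubR1 to kinetochores. It was bright throughout, at 1444, 1427, 1269 and 1570 in flight, against 1623, 1680, 1657 and 1781 on the ground, 1.18-fold lower (log2 difference -0.24, SE 0.09, limma adjusted p = 0.0399). Its groups were 0.05 apart on the log2 scale, and its call did not hold under quantile normalization, where the difference was -0.08 (adjusted p = 0.367), without the filter (0.0538) or when any single array other than the growth centrifuge array was left out (0.0681 to 0.133). Mad2l1, the gene of Mad2, had -1.16, Sgol1, the gene of shugoshin, -1.13 and Cdc20, the activator of the anaphase-promoting complex, -0.90. Securin (Pttg1) had -0.63, and separase (Espl1), the protease it inhibits, -0.51. Ttk, the gene of the checkpoint kinase Mps1, had -0.71 without the filter (limma, adjusted p = 0.000171).

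All 7 centromere and kinetochore genes were tested and lower, with a median of -0.83. Cenpe, a kinetochore motor, lay at 94.3, 98.1, 77.8 and 108 in flight, against 307, 213, 348 and 311 on the ground. All 4 flight arrays of Cenpe lay below the filter level of 141.3 and all 4 ground-based arrays above it (log2 difference -1.63, SE 0.14, limma adjusted p = 3.01e-06). Cenpa, the histone H3 variant that marks centromeres, lay at 210.4, 196, 251 and 277 in flight, against 656, 541, 632 and 666 (log2 difference -1.43, SE 0.09, limma adjusted p = 2.98e-07). The Ndc80 complex binds the microtubule, and its subunit Ndc80 had the smallest difference of these genes. It lay at 119.8, 111, 124 and 133 in flight, against 185, 162, 173 and 197 (log2 difference -0.56, SE 0.08, limma adjusted p = 0.000331). Its arrays fell on the 2 sides of the filter level in the same way. Its partners Nuf2, Spc25 and Spc24 had -1.07, -0.76 and -0.57, and Cenpf of the outer kinetochore -0.83.

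**Figure D2:**
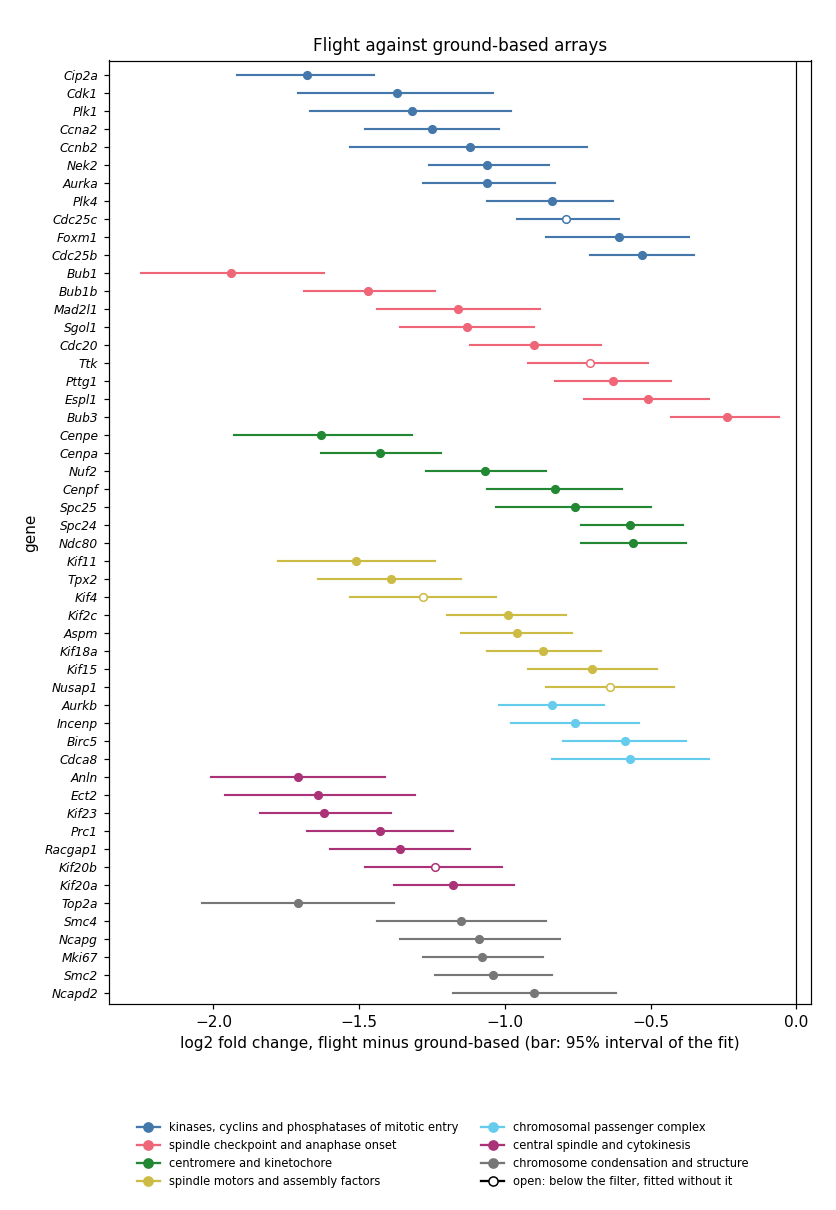
Log2 fold change of each mitosis gene, flight minus ground-based arrays, with the 95% interval of the fit, coloured by role and ordered within each role from the deepest fall. All 52 points lie below 0, and the interval nearest to it is that of Bub3, which spans -0.43 to -0.06.

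Among spindle motors and assembly factors 6 of 6 tested genes were lower, with a median of -0.97. Kif11 encodes Eg5, the kinesin that pushes the spindle poles apart, and lay at 99.1, 95.1, 110.1 and 149.7 in flight, against 327, 244, 402 and 318 on the ground (log2 difference -1.51, SE 0.12, limma adjusted p = 1.84e-06). Its growth centrifuge array was the highest of the flight arrays and still well under the ground-based ones. Tpx2, an activator and targeting factor of Aurora A, lay at 192, 202, 267 and 267 in flight, against 697, 525, 618 and 576 (log2 difference -1.39, SE 0.11, limma adjusted p = 1.88e-06). The smallest difference was that of Nusap1, a microtubule bundler below the filter, at 72.5, 99.2, 97.5 and 93.6 in flight, against 140, 125, 156 and 141 (log2 difference -0.64, SE 0.10, limma adjusted p = 0.000684 without the filter). Kif2c, which depolymerises microtubules, had -0.99, Aspm of the spindle poles -0.96, Kif18a, a kinesin of chromosome alignment, -0.87 and Kif15, a kinesin of spindle bipolarity, -0.70. The chromokinesin Kif4 had -1.28 without the filter (limma, adjusted p = 7.13e-06).

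The chromosomal passenger complex corrects faulty attachments and later moves to the central spindle, and 4 of 4 of its genes were lower, with a median of -0.68. Aurkb, its kinase, lay at 236, 247, 267 and 288 in flight, against 482, 475, 449 and 452 on the ground, with both groups tight (log2 difference -0.84, SE 0.08, limma adjusted p = 9.79e-06). Incenp, the scaffold, lay at 233, 272, 232 and 308 in flight, against 473, 414, 427 and 448 (log2 difference -0.76, SE 0.10, limma adjusted p = 0.000135). In both media its microgravity array was lower than its centrifuge array. Cdca8, the gene of borealin, lay at 96.02, 130.2, 133 and 117 in flight, against 202, 138, 189.6 and 177 (log2 difference -0.57, SE 0.13, limma adjusted p = 0.00434), and its highest flight array came close to the osteoinductive laboratory array. Survivin (Birc5) had -0.59.

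The central spindle and cytokinesis genes had the lowest median of the role groups, -1.52, with 6 of 6 tested genes lower. Anln encodes anillin, a scaffold of the contractile ring, and lay at 179, 143, 202 and 292 in flight, against 673, 550.1, 724 and 641 on the ground (log2 difference -1.71, SE 0.14, limma adjusted p = 1.7e-06). Ect2, an exchange factor needed for cytokinesis, lay at 181, 119.6, 240.4 and 284 in flight, against 614, 467, 782 and 616 (log2 difference -1.64, SE 0.15, limma adjusted p = 5.66e-06). In both genes the osteoinductive centrifuge array was the lowest and the growth centrifuge array the highest of the flight arrays. Kif20a, a kinesin of the central spindle, had the smallest difference, at 116, 147, 136 and 132 in flight, against 328, 283, 303 and 281 (log2 difference -1.18, SE 0.09, limma adjusted p = 1.64e-06). Of the parts of centralspindlin, the kinesin Kif23 had -1.62 and its GTPase-activating partner Racgap1 -1.36. Prc1, which bundles antiparallel microtubules, had -1.43, and Kif20b, without the filter, -1.24 (limma, adjusted p = 4.76e-06).

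Chromosome condensation and structure was covered by 6 genes, of which 6 of 6 were lower, with a median of -1.08. Top2a, DNA topoisomerase II alpha, lay at 281, 199.6, 449 and 457 in flight, against 1102, 914, 1205 and 1086 on the ground, 3.27-fold lower (log2 difference -1.71, SE 0.15, limma adjusted p = 3.98e-06). Both osteoinductive flight arrays were below both growth flight arrays. Top2a was the only one of the 52 genes with a second probe set of its own, and with the mean of both the count of lower genes was again 47. That count does not show the second probe set by itself, whose difference is not given here. Another 2 probe sets of Top2a, shared with other genes, were not used. Smc4, a core subunit of condensin, lay at 494, 348, 506 and 698 in flight, against 1057, 842, 1386 and 1197 (log2 difference -1.15, SE 0.13, limma adjusted p = 3.89e-05). Ncapd2 of condensin I lay at 311, 266, 429.6 and 324 in flight, against 701, 586, 614 and 548 (log2 difference -0.90, SE 0.13, limma adjusted p = 0.000236). The other condensin genes Ncapg and Smc2 had -1.09 and -1.04. Mki67, the gene of the Ki-67 antigen that coats mitotic chromosomes, had -1.08.

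Flight minus ground-based pools microgravity with the centrifuge, and each was also compared with the ground setting. In these comparisons all 8 arrays shared a fit with setting and medium, and the interaction of both served as the error. In microgravity minus ground, 46 of 47 mitosis genes were lower (limma, adjusted p under 0.05), where 18.1% of all tested genes were. The median was -1.13, beside -0.09 over all tested genes. In centrifuge minus ground, 46 of 47 were also lower, where 3.78% of all tested genes were, and the median was -1.16, beside -0.03. Bub3 did not pass in either, with -0.28 in microgravity minus ground (adjusted p = 0.109) and -0.13 in centrifuge minus ground (adjusted p = 0.571). Bub1 had -1.94 in microgravity minus ground (SE 0.17, limma adjusted p = 7.49e-06) and -2.26 in centrifuge minus ground (SE 0.17, limma adjusted p = 3.1e-06). For Cip2a these values were -1.86 in microgravity and -1.85 on the centrifuge, for Top2a -1.70 and -1.93, and for Anln -1.88 and -1.77. The comparisons share the ground arrays, so they are not independent of each other. Within single media, with 1 array on each side and no test, all 52 genes were lower in microgravity than on the ground and all 52 were lower on the centrifuge than on the ground, and likewise against the laboratory arrays. These counts follow from the lack of overlap between flight and ground-based arrays given above and add no separate evidence.

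Between microgravity and the centrifuge, which differ in gravity within the same flight hardware, no mitosis gene passed the threshold. In microgravity minus centrifuge 0 of 47 were lower and 0 higher at an adjusted p under 0.05 (limma), where 0% of all tested genes were called in either direction. At an unadjusted p under 0.05 there were 3 of the 47 and 1507 of all 13205. The median was -0.02, beside -0.05 over all tested genes, with 26 of 47 negative, and it was 0.14 without the growth centrifuge array. Markers of other tissues moved in the same comparison without passing the threshold. The 9 lung markers were all positive with a median of 1.26, and all 9 had an unadjusted p under 0.05, as did 6 of the 10 endothelial markers, all positive with a median of 0.36. The median was 0.10 for skeletal muscle markers and 0.19 for neuronal markers, and the part of these markers in the comparison was not tested. The 4 genes with the smallest p did not share a direction. Plk1 had 0.53 (95% interval 0.21 to 0.86, adjusted p = 0.281), and its microgravity array was above its centrifuge array by 0.31 in osteoinductive medium and by 0.76 in growth medium. Its intensities were 234, 189, 323 and 191 on the flight arrays, against 685, 508, 592 and 515. Mad2l1 had -0.42 (95% interval -0.74 to -0.10, limma adjusted p = 0.338), from 367, 408, 453 and 729.7 in flight, against 976, 919, 1156 and 1181 on the ground, so that the growth centrifuge array stood apart from the other flight arrays. Incenp had -0.32 (95% interval -0.58 to -0.05, limma adjusted p = 0.38) and Ncapd2 0.32 (-0.02 to 0.65, limma adjusted p = 0.467). Bub1, whose differences from the ground were the deepest, had 0.31 with an interval from -0.05 to 0.68.

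The media disagreed on microgravity minus centrifuge in some genes. Counting a gene where the difference had opposite signs in the 2 media and exceeded 0.31 in size in each, which is 2 standard deviations of ground minus laboratory over all tested genes, gave Anln and Smc4 among the 52, where 1.29% of all tested genes met it. Anln was at 0.32 in osteoinductive medium and -0.53 in growth medium, and Smc4 at 0.50 and -0.46. Each value rests on 1 array against 1. Over all tested genes the standard deviation of microgravity minus centrifuge itself was 0.22 in osteoinductive and 0.28 in growth medium, wider than that of ground minus laboratory.

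Incubation units on the ground were also compared with dishes in the laboratory, both at normal gravity. In ground minus laboratory 0 of 47 mitosis genes passed (limma), where 0% of all tested genes did, while 8 of the 47 and 269 of all genes had an unadjusted p under 0.05. The median was 0.19, beside -0.04 over all tested genes, and 45 of 47 values were positive. It was 0.03 without the osteoinductive ground array and 0.33 without the growth ground array. The largest was that of Kif11 at 0.38 (SE 0.13, limma adjusted p = 1), beside its flight difference of -1.51.

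Osteoinductive medium went with lower values of part of the genes. In osteoinductive minus growth medium, over all settings, 13 of 47 were lower and 0 higher (limma, adjusted p under 0.05), where 8.13% of all tested genes were lower and 6.42% higher. The median was -0.21, beside -0.02. Of the condensation genes 4 of 6 were lower, of the central spindle genes 3 of 6, of the spindle motors 2 of 6, of the checkpoint genes 2 of 8, of the entry genes 2 of 10, and of the kinetochore and passenger genes 0 of 7 and 0 of 4. The 13 were Smc2, Kif18a, Cip2a, Plk4, Ncapg, Bub1, Ect2, Mad2l1, Top2a, Kif11, Smc4, Prc1 and Kif23. Without the growth centrifuge array, or without the osteoinductive centrifuge array, the count was 8.

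Smc2, a core condensin subunit, had the smallest p. In osteoinductive medium it lay at 179, 173, 417 and 333 in microgravity, centrifuge, ground and laboratory, against 242, 284, 524 and 521 in growth medium, lower in each of the 4 settings (log2 difference -0.53, SE 0.09, limma adjusted p = 0.00218). Kif18a lay at 91.4, 83.7, 186 and 154 in osteoinductive medium, against 125, 137, 225 and 225 in growth medium, also lower in each setting (-0.50, SE 0.09, limma adjusted p = 0.00336). Plk4 lay at 158, 150.5, 322 and 251 in osteoinductive medium, against 199.6, 248, 377 and 402 in growth medium (-0.49, SE 0.10, limma adjusted p = 0.00616). Cip2a, given above, had -0.49 as well (SE 0.09, limma adjusted p = 0.00369), and Ect2 had the lowest value, -0.60 (SE 0.13, limma adjusted p = 0.0097). The highest was that of Cdc25b, 0.09. Other lists moved in the same comparison. Of the other mitosis genes 13 of 50 were lower and 1 higher with a median of -0.16, of the DNA replication genes 10 of 44 were lower with -0.17, and of the neuronal markers 3 of 9 were lower with -0.26. The median was -0.13 for skeletal muscle markers, with 1 of 14 lower and 1 higher, and 0.33 for lung markers, with 1 of 9 higher and all 9 positive. The part of these markers in the difference between media was not tested. The lung sum was higher in osteoinductive than in growth medium only in microgravity, at 16142 against 4124. It was 2926 against 3338 on the centrifuge, 1900 against 1920 on the ground and 1790 against 1812 in the laboratory.

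**Figure D3:**
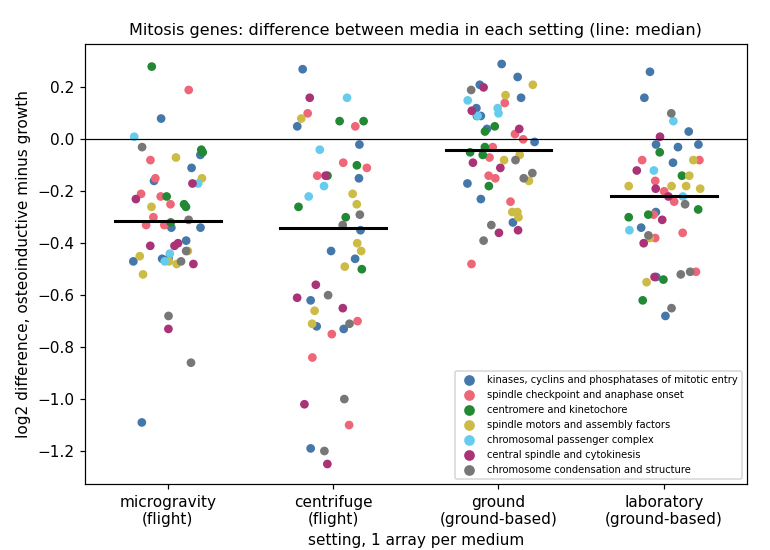
Each point is 1 of the 52 mitosis genes and gives its log2 difference between the osteoinductive and the growth array of a setting, with 1 array on each side, coloured by role. The black lines are medians, at -0.31 in microgravity, -0.34 on the centrifuge, -0.04 on the ground and -0.22 in the laboratory.

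The difference between media is given here by setting, with 1 array on each side and no test. In the plot of the media by setting, 48 of the 52 genes were lower in osteoinductive medium in microgravity, 43 on the centrifuge, 30 on the ground and 46 in the laboratory. The points spread furthest on the centrifuge, where Ect2 was at -1.25, Top2a at -1.20, Cdk1 at -1.19 and Bub1 at -1.10. Among flight arrays alone, with classes of flight and medium of 2 arrays each, 12 of 47 were lower in osteoinductive medium, where 5.56% of all tested genes were (limma, adjusted p under 0.05). The median was -0.34. This count was 0 without the osteoinductive centrifuge array and 7 without the osteoinductive microgravity array. Top2a had the lowest value, -0.94 (SE 0.16, limma adjusted p = 0.00383), then Ccnb2 with -0.86 (SE 0.16, adjusted p = 0.00686) and Ect2 with -0.83 (SE 0.20, adjusted p = 0.024). Among ground-based arrays 0 of 47 passed (limma), where 0.295% of all tested genes were lower, and 6 of the 47 and 1367 of all genes had an unadjusted p under 0.05. The median there was -0.12, and it was -0.23 without the osteoinductive ground array and 0 without the osteoinductive laboratory array. In the flight arrays the medians of osteoinductive minus growth were also -0.44 for neuronal, -0.28 for skeletal muscle and 0.74 for lung markers, whose part was not tested. The lung sum was 16142 against 4124 in microgravity, but 2926 against 3338 on the centrifuge.

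The flight difference was also fitted within each medium, and the genes were lower in flight in both. In osteoinductive medium 46 of 47 were lower in flight, all but Bub3, where 11.7% of all tested genes were, with a median of -1.16. In growth medium 44 of 47 were lower, where 5.79% of all tested genes were, with a median of -1.0, and Foxm1 (-0.38, limma adjusted p = 0.0871), Cdca8 (-0.56, 0.0663) and Bub3 (-0.28, 0.154) did not pass. The difference between the media was tested as the interaction of flight and medium. It gave 0 of 47 lower and 0 higher at an adjusted p under 0.05 (limma), where 0% of all tested genes were called, while 10 of the 47 and 525 of all genes had an unadjusted p under 0.05. The median was -0.18, beside -0.04 over all tested genes, and 40 of 47 values were negative. It was -0.04 without the osteoinductive ground array and -0.31 without the osteoinductive laboratory array. In the same interaction the lung markers had a median of 0.82 with 9 of 9 positive, the skeletal muscle markers one of -0.24 with 13 of 14 negative, and the neuronal markers one of -0.23 with 7 of 9 negative. The part of these markers in the interaction was not tested. In osteoinductive medium the lung sum was 16142 on the microgravity array and 2926 on the centrifuge array. The smallest p among the mitosis genes was that of Ccnb2, a B-type cyclin partner of Cdk1.

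Ccnb2 lay at 204, 195, 436 and 299.8 in flight, against 683, 588, 557 and 527 on the ground. The growth microgravity array, at 436, was the highest flight array and lay nearer to the ground-based arrays than to the osteoinductive flight arrays. Its flight difference was -1.66 in osteoinductive medium and -0.58 in growth medium, an interaction of -1.08 (SE 0.23, limma adjusted p = 0.647), and without the growth centrifuge array it was -1.35 (limma adjusted p = 0.0278). Top2a had an interaction of -0.75 (SE 0.23), from -2.08 in osteoinductive and -1.34 in growth medium, and Cdk1 of -0.73 (SE 0.24), from -1.74 and -1.01, both with an adjusted p of 0.999 by limma. Racgap1 lay at 424, 414, 565 and 612 in flight, against 1400, 1192, 1218 and 1293 (interaction -0.53, SE 0.17, limma adjusted p = 0.999). Prc1 lay at 156, 153, 260.4 and 241 in flight, against 556, 458, 592 and 524 (interaction -0.55, SE 0.18, limma adjusted p = 0.999). Foxm1 lay at 166, 184, 230 and 179 in flight, against 326, 303, 276 and 253 (interaction -0.46, SE 0.20, limma adjusted p = 0.999). In these genes the osteoinductive flight arrays were lower than the growth flight arrays, except that the osteoinductive centrifuge array of Foxm1 was slightly above its growth centrifuge array. Cenpe went the other way, with 0.43.

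**Figure D4:**
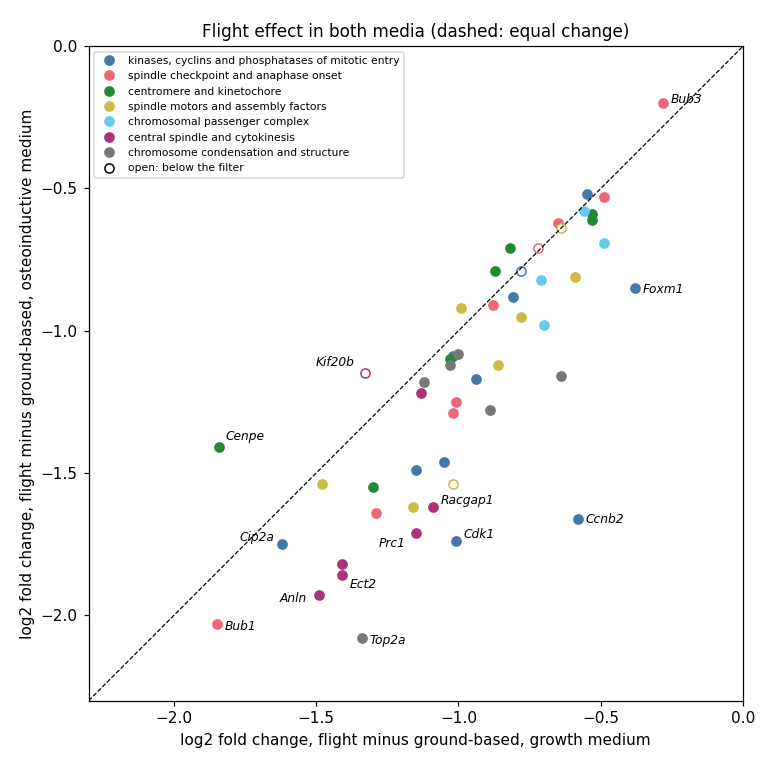
Log2 fold change of each mitosis gene, flight minus ground-based, in osteoinductive medium (vertical axis) against growth medium (horizontal axis), with 2 arrays on each side. The dashed line marks an equal change. Most points lie below it, as for Ccnb2 at -1.66 and -0.58, and Cenpe lies above it at -1.41 and -1.84.

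Other genes of the cell cycle were described from lists that do not hold these 52. Of 50 tested genes from a list of other mitosis genes, 43 were lower in flight and 0 higher (limma, adjusted p under 0.05), where 25.7% of all tested genes were lower and 12.7% higher, with a median of -0.67. Shcbp1, which encodes a midbody protein, was at -1.29. Lists of subunits of related complexes had medians closer to 0. In the anaphase-promoting complex 6 of 13 genes were lower with a median of -0.27, in cohesin 5 of 9 with -0.28, and in the centrosome list 6 of 13 with -0.17, beside 25.7% of all tested genes. Rad21, the cleaved subunit of cohesin, was at -0.43 (limma adjusted p = 0.00244) and Smc1a at -0.38. The DNA replication list had 34 of 44 genes lower, again beside 25.7%, with a median of -0.42, and its lowest was Dbf4, the activator of Cdc7 kinase, at -1.42. The median of the 47 mitosis genes, -1.07, was lower than that of each of these lists. Members and lists were both chosen with earlier results of these data known, so this order is not an independent comparison. Of the 20 deepest falls among all tested genes, 14 belonged to the 52 and 0 to the list of other mitosis genes.

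Of the regulators upstream, 10 of 24 genes of the list of G1 cyclins, E2F, Rb and MuvB were lower and 1 higher, where 25.7% of all tested genes were lower and 12.7% higher, with a median of -0.18. Rbl1, the gene of p107, was at -0.60 and cyclin D1 (Ccnd1) at -0.52, while Rb1 was the one that rose, at 0.26 (limma adjusted p = 0.0307). Of 7 CDK inhibitors listed 6 were found, and among these Cdkn1c, the gene of p57, was higher in flight. It lay at 561, 519, 680.2 and 571 in flight, against 209.7, 181, 187 and 214 on the ground, 2.94-fold higher without overlap (log2 difference 1.55, SE 0.09, limma adjusted p = 1.67e-07). Cdkn2c, the gene of p18, was lower by contrast, at -0.80 (SE 0.09, limma adjusted p = 3.6e-05), and Cdkn2b at -0.39. Cdkn1b, Cdkn2a and Cdkn2d did not pass.

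The markers of other tissues moved in the same comparison. In flight minus ground-based 9 of 9 tested neuronal markers were higher with a median of 2.63, 12 of 14 skeletal muscle markers with 1.23, 5 of 9 lung markers with 0.79 and 9 of 10 endothelial markers with 0.54, where 12.7% of all tested genes were higher. Of the stromal markers 6 of 14 were lower and 1 was higher, with a median of -0.16, and their summed intensity was 38739 to 48616 on flight arrays, against 48349 to 53488 on ground-based arrays. Without the osteoinductive microgravity array, the one with the highest lung marker sum, 46 of 47 mitosis genes were lower in flight. The neuronal, skeletal muscle, lung and endothelial sums of the other flight arrays were also above those of the ground-based arrays. Sftpc alone gave 1515, 1233 and 724 of the lung sums on the growth microgravity, growth centrifuge and osteoinductive centrifuge arrays. In centrifuge minus ground 1 of 9 lung markers was higher (limma, adjusted p under 0.05), where 837 of all 13205 tested genes were. The lung median there was 0.27, with 7 of 9 positive. The part of these markers in the flight difference was not tested.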

How the data were processed

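Total RNA of 8 samples was amplified and biotin-labelled, and each sample was hybridised to 1 array, per the labels' protocols. The values are linear intensities as deposited, 1 per probe set and array. RMA and GCRMA are named in the submitters' processing notes, without versions and without saying which gave these intensities, and no source used here names the genome build. Array medians lay within 0.12 on the log2 scale, so the deposited intensities were used after taking log2, without further normalization. The medians were 191.3 to 196.4 on flight arrays and 180.9 to 183.6 on ground-based arrays. With quantile normalization 2533 of all tested genes were lower in flight minus ground-based, in place of 3393. The share of 25.7% given above therefore depends on this choice.

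Of 35557 probe sets, 21789 were annotated to 1 gene. Where a gene had more than 1, the brightest by mean log2 represented it. The filter kept 13205 of 19938 genes, those with a mean over the 40th percentile of probe sets (log2 7.14). Groups followed the sample titles. limma 3.58.1 (R 4.3.3; lmFit, eBayes) was fitted on log2 values over all 8 arrays, with p-values adjusted by Benjamini-Hochberg over all tested genes at a threshold of 0.05, two-sided. Flight was fitted with medium as a covariate, so that the settings on each side count as repeats although they differ. The 4 settings were fitted with medium without an interaction, and flight within each medium and its interaction as 4 classes of 2 arrays. With 1 array per medium and setting, their number limits the precision. The code was tested on simulated data.

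The members and gene lists were chosen with earlier results of these data known. Every member may be named, and values on all arrays are given for the 2 lowest and the 1 highest difference of each role in flight minus ground-based, and for the smallest p-values of the interaction (6), of the media (4) and of microgravity minus centrifuge (4). Alternatives were no filter, a filter at the 60th percentile, quantile normalization, 32 added before log2, the mean of a gene's probe sets, no term for medium, only the 4 arrays compared, and leaving out each array. Promoter windows and present symbols came from RefSeq tables of GRCm38.p6, and a window was found for 43 of the 52 genes.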

Additional observations from a re-analysis of the deposited data

Results flagged for a closer look

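The difference between microgravity and the centrifuge had opposite directions in the media for Anln, the anillin gene, and for Smc4, a condensin gene. For Anln microgravity minus centrifuge was 0.32 on the log2 scale in osteoinductive medium and -0.53 in growth medium, and for Smc4 it was 0.50 and -0.46. Each of the 4 values is larger than 0.31, which is 2 standard deviations of ground minus laboratory over all tested genes, and each rests on 1 array against 1. The difference between the media was not tested. Of all tested genes 1.29% met the same criterion. The standard deviation of microgravity minus centrifuge itself was wider than that of ground minus laboratory, at 0.22 in osteoinductive and 0.28 in growth medium.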

How the results depend on the processing

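None of the values recomputed under the alternatives reversed its direction where it had passed. The flight difference of the 52 genes was recomputed in 634 values, of which 624 kept direction and side of the threshold and 10, all of Bub3, lost the call. For Bub3 these include -0.24 without a term for medium (limma adjusted p = 0.0569). With the filter at the 60th percentile fewer genes were tested, and 23 of 23 were lower in flight minus ground-based, 22 in microgravity minus ground, 22 in centrifuge minus ground, 22 in flight within each medium and 8 in osteoinductive minus growth. Leaving out each array in turn gave 46 to 47 lower genes in flight minus ground-based, 40 to 46 in microgravity minus ground, 37 to 46 in centrifuge minus ground, 33 to 44 for flight in growth medium and 37 to 46 for flight in osteoinductive medium. It gave 8 to 16 in osteoinductive minus growth, 0 to 18 of these within flight, 0 to 1 within ground-based arrays, and 0 to 1 for the interaction. The cause of these shifts was not tested. With the array left out, its class holds 1 array, which is assumed to vary like the others. With 32 added before log2 the median flight difference was -0.94. The labels give no replicate numbers, so arrays were matched only by medium or setting, through the terms of the fits, and not by culture or mouse.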
